A study of Mus musculus with 4 samples.

Results

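The genes described here encode the subunits of the mitochondrial respiratory chain and of the ATP synthase, with some of their assembly factors. They were taken by symbol from the annotation of the array probes, as the names that begin with Nduf, Uqc, Cox4 to Cox8 or Atp5 together with Sdha to Sdhd, which gave 110 probes of 87 genes among the 16593 genes named on the array. RNA came from a portion of the spleen of 2 Snd1 knockout (KO) and 2 wild-type (WT) mice, all females of strain C57BL/6N and of 8 to 12 weeks per the labels (a figure legend of the study gives only the lower of these ages), and was hybridised to Illumina MouseRef-8 v2.0 arrays, 1 for each mouse. The KO mice carried a germline deletion of the first Snd1 exon in all cells, made by crossing a floxed line, derived from stem cells of a different mouse strain, with mice that express Cre from the CAG promoter. The line was then backcrossed to C57BL/6N, and the study used littermates of heterozygous parents but does not say which arrays were littermates. The question behind the comparison was how spleen gene expression depends on Snd1, which binds RNA and has been described as a coactivator of transcription.

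Complexes I and II take electrons from NADH and succinate and hand them to coenzyme Q, complex III passes them on to cytochrome c, and complex IV gives them to oxygen. Complexes I, III and IV pump protons across the inner mitochondrial membrane, and the ATP synthase lets them flow back through a membrane ring that drives its catalytic head. A few subunits of complexes I, III and IV and of the ATP synthase are encoded in the mitochondrial genome, and all of those measured here in the nucleus. Some nuclear subunits exist as pairs of isoforms, one made in most tissues and the other in heart and muscle, in testis or under low oxygen.

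The array signals are given as normalized log2 intensities, so that a difference of 1 is a doubling, and a probe is called detected on an array where its detection p was under 0.05. Values are compared only between arrays and never between probes. The 1 Snd1 probe read 4.45 and 4.58 on the KO arrays, detected on neither, against 6.71 and 7.09 on the WT arrays, detected on both, and no source used here places it relative to the deleted exon. B cell markers (6 of 6 genes) and red pulp macrophage markers (6 of 6) were detected on all 4 arrays, as were 5 of 6 T cell markers, while Cd8a was detected on none. Genes of other tissues were also read: 5 of 7 liver markers were detected on each KO array, against 1 and 0 on the WT arrays, while Alb and Fgb were detected on none. Of 7 exocrine pancreas markers 6 and 3 were detected on the KO arrays, against 2 and 3 on the WT arrays, and Prss2 on none. Of 7 adipocyte markers 2 and 3 were detected on the KO arrays, against 0 and 0 on the WT arrays. Their summed linear level was 176 on KO1 and 1002 on KO2, against 172 and 166 on the WT arrays. Most of the KO2 sum came from Adipoq, at 5.18 on KO1 and 9.69 on KO2, against 4.75 and 4.69 in WT. Fabp4, Plin1, Retn and Pck1 were detected on no array.

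No respiratory chain or ATP synthase gene differed between KO and WT by the test across all probes. Probes detected on both arrays of a group were tested, which kept 88 of the 110 probes and 75 of the 87 genes, and 84 of these probes were detected on all 4 arrays and the other 4 on 3. The test was limma's moderated test with Benjamini-Hochberg adjustment over all 12493 tested probes, at an adjusted p under 0.05. It called 0 of the 75 genes, with a smallest adjusted p of 0.771, beside 2 of 12493 probes over the whole array (0.0160%), both higher in KO. At an unadjusted p under 0.05, 5 of the 75 genes were lower and 2 were higher in KO, which is 6.67% and 2.67% beside 2.51% and 3.49% of all 8716 tested genes. With 2 arrays in each group the precision is limited by the number of arrays, and an exact permutation test could not give a p under 0.33. Standard errors (SE, given as ±) are the moderated ones of this fit. They draw the spread of each gene towards that of all tested probes, so they are not the gene's own spread between mice.

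The measured values leaned to lower levels in KO, by less than the typical gap between 2 mice of the same group. The KO mean was lower for 51 of 75 genes (68.0%), against 49.3% of all tested genes, and the median difference, KO minus WT, was -0.10 (log2), against 0.0041 over all tested genes. Both KO values lay below both WT values in 25 of the 75 genes, which is 33.3% beside 17.6% of all tested genes, and above them in 9, which is 12.0% beside 20.6%. Between the 2 KO mice the same genes differed by a median of 0.15 (KO1 minus KO2) and between the 2 WT mice by 0.16 (WT1 minus WT2), both larger than the difference between the groups. In a whole spleen, fewer cells of a type and less RNA per cell cannot be told apart.

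**Figure D1:**
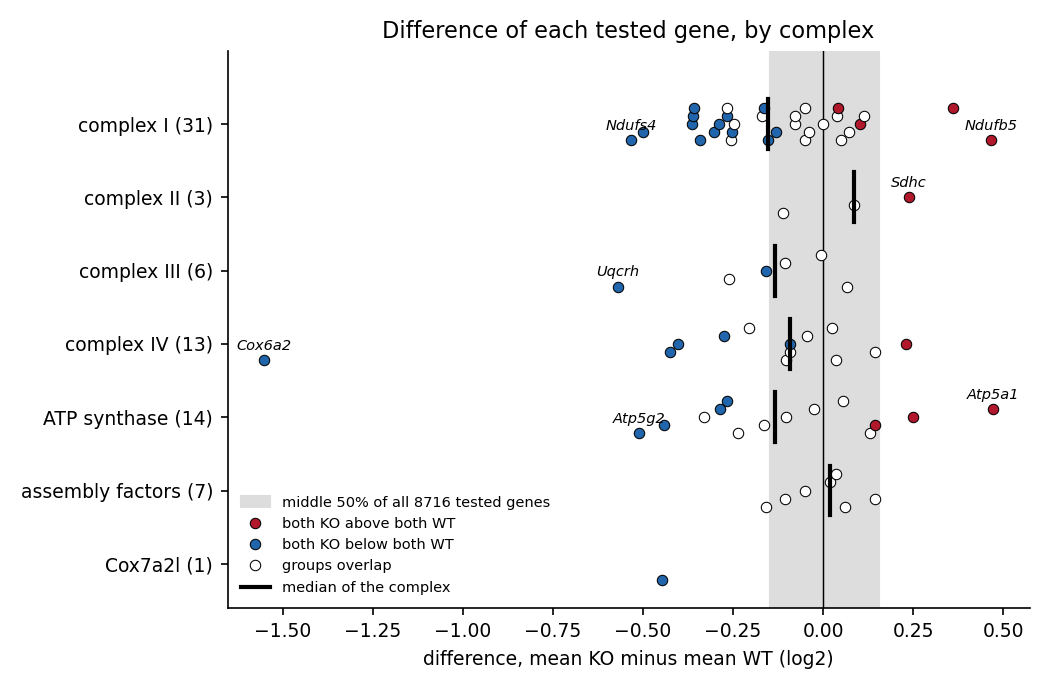
Difference between the KO and WT means (log2, horizontal axis) for each of the 75 tested genes, in rows by complex with the number of genes in brackets. Filled points mark genes whose KO values both lie above (red) or below (blue) both WT values, black bars are the medians of the complexes, and the grey band holds the middle 50% of all 8716 tested genes. The medians of complexes I, III, IV and the ATP synthase lie between -0.15 and -0.09, and Cox6a2 stands apart at -1.55.

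Of the 5 complexes, complex I had the lowest median difference (-0.15), followed by the ATP synthase and complex III (-0.13 each) and complex IV (-0.09), while complex II stood at 0.09. Within a complex, the median gap between the 2 KO arrays (KO1 minus KO2) was 0.07 to 0.21 and that between the 2 WT arrays (WT1 minus WT2) 0.12 to 0.22. Differences between complexes were not tested.

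The lean rested on 2 of the 4 arrays. WT1 was the highest of the 4 arrays for 45 of the 75 genes and KO2 the lowest for 43, whereas over all tested genes WT1 was the highest for 22.3% and KO2 the lowest for 21.5%. Without WT1, 40 of 75 genes had a lower KO mean (53.3%), beside 53.4% of all tested genes, and the median difference was -0.03. Without KO2 it was 41 of 77 genes (53.2%), beside 46.8% of all genes, with a median of -0.02. Without KO1 the lower genes were 59 of 75 (78.7%, median -0.19) and without WT2 58 of 75 (77.3%, median -0.18), beside 46.6% and 48.2% of all genes.

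**Figure D2:**
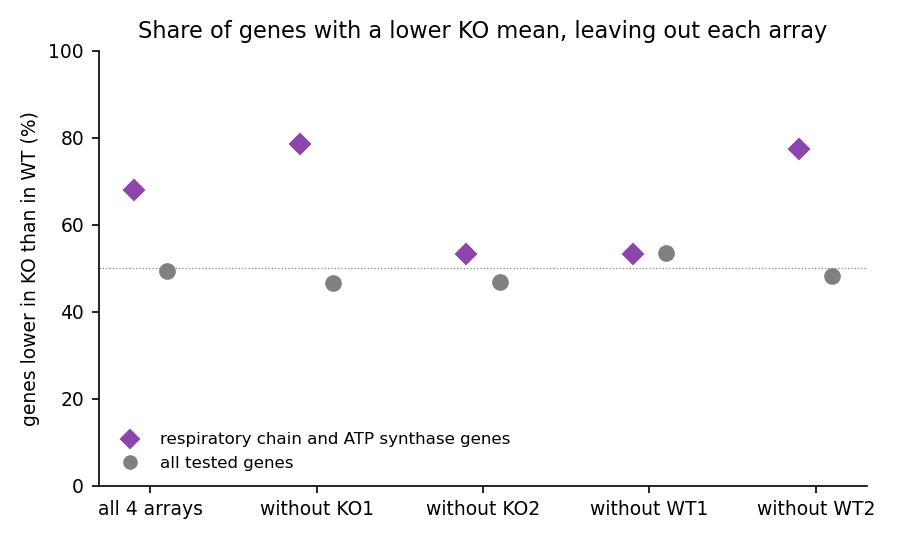
Percentage of genes whose KO mean was below their WT mean (vertical axis), for the respiratory chain and ATP synthase genes (purple diamonds) and for all tested genes (grey circles), with all 4 arrays and after leaving out each array. The purple points stand at 68.0% with all arrays and at 53.3% and 53.2% without WT1 and without KO2, where the grey points are at 53.4% and 46.8%.

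Cell type markers also differed between the arrays. The 6 erythroid markers on the array, which follow red cell precursors, had a summed linear level of 17372 and 21661 on the KO arrays, against 34627 on WT1 and 5030.2 on WT2. The membrane anion exchanger Slc4a1 read 13.58 and 13.88 on the KO arrays, against 14.38 and 10.97 on the WT arrays, and Hemgn, a nuclear protein of erythroid cells, 8.01 and 8.63, against 9.71 and 5.64. WT1 was thus the highest array for these markers as for most respiratory genes, but the lowest was WT2 and not KO2. The 9 neutrophil markers summed to 10413 and 4933.9 on the KO arrays, against 16462 and 13706 on the WT arrays, with KO2 the lowest and WT1 the highest. All 9 were lower in KO with groups that did not overlap, with a median difference of -1.49, and the 4 proliferation markers on the array summed to 4489.6 and 2967 on the KO arrays, against 5058 and 1901 on the WT arrays. The 6 B cell markers summed to 9539 and 13341 on the KO arrays, against 11613 and 15002 on the WT arrays, higher on replicate 2 in both groups. Their median difference was -0.31, with 5 lower in KO. The part of these markers, and of the adipocyte markers detected on KO2, in the values of the respiratory genes was not tested.

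**Figure D3:**
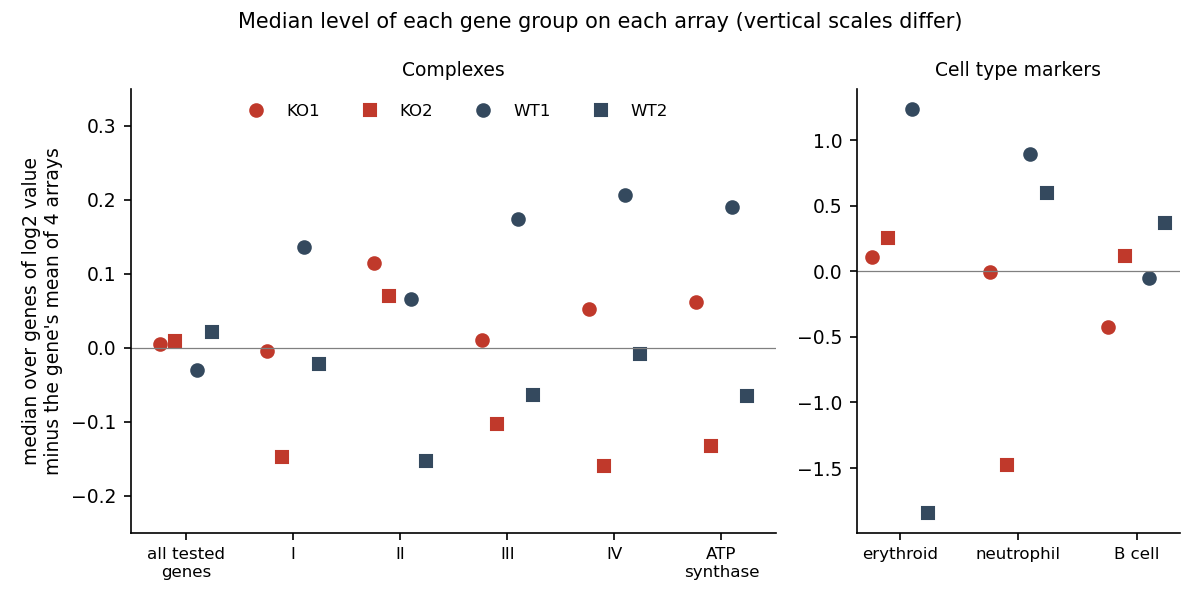
Median over the genes of each group of the log2 value minus the gene's mean over the 4 arrays (vertical axes, which differ in scale between the panels), for each array, KO arrays in red left of WT arrays in dark blue-grey, replicate 1 as circles and replicate 2 as squares. In complexes I, III, IV and the ATP synthase WT1 lies highest, at 0.14 to 0.21, and KO2 lowest, at -0.16 to -0.10. Erythroid markers span 1.24 on WT1 to -1.84 on WT2.

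The genes of these complexes are known to share control by the nuclear respiratory factor NRF1 and by ETS factors such as GABP. Stretches of 4 promoters are printed because these genes had some of the larger differences and carried a searched motif just before the start site. Each runs over the 120 bases before the annotated start, 5′ to 3′ on the strand of the gene, from RefSeq on GRCm38.p6, with the motif in capitals. Uqcrh, Atp5g2 and Cox6b1 were lower in KO and Atp5h was higher, all with groups that did not overlap. Uqcrh lies at chr4:116075071-116075190, Atp5g2 at chr15:102671048-102671167, Cox6b1 at chr7:30626115-30626234 and Atp5h at chr11:115419920-115420039, all 4 on the minus strand.
Uqcrh: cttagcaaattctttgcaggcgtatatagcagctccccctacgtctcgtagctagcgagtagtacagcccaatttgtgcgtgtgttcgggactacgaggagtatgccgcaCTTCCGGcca
Atp5g2: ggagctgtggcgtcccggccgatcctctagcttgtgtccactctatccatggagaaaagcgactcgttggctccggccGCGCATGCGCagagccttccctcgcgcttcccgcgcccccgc
Cox6b1: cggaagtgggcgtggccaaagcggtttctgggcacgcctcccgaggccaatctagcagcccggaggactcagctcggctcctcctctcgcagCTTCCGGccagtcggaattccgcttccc
Atp5h: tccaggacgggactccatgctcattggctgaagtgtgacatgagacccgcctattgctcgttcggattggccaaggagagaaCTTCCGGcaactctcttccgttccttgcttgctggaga
The capitals are the ETS letters CCGGAAG, found on the opposite strand in Uqcrh, Cox6b1 and Atp5h, and the NRF1 letters, GCGCA and GCGC with any 1 base between them, in Atp5g2, where they match on both strands. In windows of 300 bases around the start, searched on both strands, NRF1 letters were present in 17 of the 72 genes found in the RefSeq table and ETS letters also in 17 of 72 (23.6% each), against 5.19% and 9.93% of all 27025 genes. Either motif was present in 30 of 72 genes (41.7%), against 14.0% of all genes. The 27 tested genes with either motif had a median difference of -0.11 with 19 lower in KO, and the 37 without one had -0.08 with 24 lower. A match describes the letters of the window and does not show a bound site.

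Complex I, the NADH dehydrogenase, had 34 genes on the array, of which 31 were tested. Ndufab1, Ndufb4 and Ndufs1 were not detected on both arrays of a group, and 1 of the tested entries, Ndufs5-ps, is named as a pseudogene. The KO mean was lower in 23 of the 31 genes, and the median difference was -0.15. The KO values lay below both WT values in 13 (41.9%, beside 17.6% of all tested genes) and above them in 4 (12.9%, beside 20.6%). The median without WT1 was -0.06 and without KO2 -0.08. Split by role after the values were seen, the 26 tested accessory subunits, which surround the catalytic core, had a median of -0.17 with 20 lower, and the 5 tested core subunits, the conserved part that carries out the reaction, had -0.0005 with 3 lower. The median of the values minus each gene's 4-array mean was highest on WT1 and lowest on KO2 in both parts. It was 0.15 and -0.16 for the accessory subunits, and 0.12 and -0.10 for the core subunits.

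Among the accessory subunits, Ndufs4, a matrix arm subunit whose loss is known to cause Leigh syndrome in humans, had the smallest unadjusted p of the complex. Its brightest probe read 10.02 and 9.88 on the KO arrays, against 10.50 and 10.47 on the WT arrays, a difference of -0.53 ± 0.14 (log2, moderated SE, n = 2 per group). Both KO values were lower on that probe, but the 4 Ndufs4 probes did not give the same picture. A second probe read 7.67 and 7.73 in KO, against 8.00 and 8.02 in WT (-0.31 ± 0.14), and the third 6.82 and 7.03 in KO, against 6.81 and 6.58 in WT (0.23 ± 0.17), while the fourth differed by 0.0098 ± 0.15 with overlapping groups. No source used here says which Ndufs4 transcripts each probe reads.

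Ndufa6, a subunit of the LYR family on the matrix arm, read 10.92 and 10.82 on the KO arrays, against 11.40 and 11.33 on the WT arrays (-0.50 ± 0.14). Ndufa2, another matrix arm subunit, read 10.83 and 10.69 in KO, against 11.20 and 11.04 in WT (-0.36 ± 0.15). In both, each KO mouse was below each WT mouse, and the adjusted p was 0.771 as for Ndufs4. Of the genes that were higher, Ndufb5 and Ndufb2 are subunits of the membrane arm, as are Ndufb3 (-0.34 ± 0.16), Ndufb7 (-0.30 ± 0.14) and Ndufc2 (-0.29 ± 0.17), whose KO values both lay below WT. Ndufb5 read 6.34 and 6.44 in KO, against 6.06 and 5.79 in WT (0.47 ± 0.16), and Ndufb2 5.30 and 5.50 in KO, against 4.97 and 5.11 in WT (0.36 ± 0.16, adjusted p = 0.771 each). Both genes were dim. The Ndufb5 signals before normalization were 164 and 175 in KO, against 150 and 136 in WT, and its difference was 0.21 without background correction. Ndufb2 was detected on both KO arrays but on only 1 WT array. Ndufa10 (0.10 ± 0.15) and Ndufa13, also known as the cell death regulator GRIM-19 (0.04 ± 0.14), were above WT on both KO arrays by less than their moderated SE.

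Complex II, the succinate dehydrogenase, which is also an enzyme of the TCA cycle, did not share the lean, although only 3 of its genes were measured (Sdha is not analysed here). The median difference was 0.09, and it was -0.02 without WT2. The membrane anchor Sdhc read 10.76 and 10.66 on the KO arrays, against 10.65 and 10.29 on the WT arrays (0.24 ± 0.18, adjusted p = 0.807), so the groups were apart by a margin far smaller than the gap between the 2 WT mice. The iron-sulfur subunit Sdhb read 8.95 and 8.61 in KO, against 8.91 and 8.86 in WT (-0.11 ± 0.17) on the brighter probe and 8.53 and 8.44, against 8.70 and 8.73 (-0.23 ± 0.14) on the other. The second anchor Sdhd was dim, at 5.06 and 5.49 in KO, against 5.30 and 5.08 in WT (0.09 ± 0.21).

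Complex III, the cytochrome c reductase, had 8 genes on the array and 6 tested, without the Rieske protein Uqcrfs1 and the small subunit Uqcrq, which were detected on no array. The KO mean was lower in 5 of 6, with a median difference of -0.13. The groups were apart in 2, both lower (33.3%, beside 17.6% of all tested genes). The median was -0.02 without WT1 and -0.03 without KO2. Uqcrh, the hinge protein that sits by the cytochrome c1 site, read 11.62 and 11.79 on the KO arrays, against 12.32 and 12.23 on the WT arrays (-0.57 ± 0.15, adjusted p = 0.771). This was a KO level of 0.673 times WT, with a gap between the groups wider than the gap within either, and over the alternatives tried the difference ran between -0.66 and -0.47. The core proteins of the complex had smaller differences, at 0.07 ± 0.15 for Uqcrc1 and -0.16 ± 0.15 for Uqcrc2, and Cyc1, the cytochrome c1 subunit whose name the rule for genes did not take, was at -0.05 ± 0.21.

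Complex IV, the cytochrome c oxidase, had the widest spread, from -1.55 to 0.23, over 13 tested of 18 genes. The KO mean was lower in 9, and the median difference was -0.09. In both KO mice 5 genes lay below WT (38.5%, beside 17.6% of all tested genes) and 1 above (7.69%, beside 20.6%). The median was -0.04 without WT1, 0.0007 without KO2, -0.30 without WT2 and -0.02 with all 18 genes, 9 of them lower, when no detection filter was set. Cox6a2 had the largest difference of all 75 genes and the smallest unadjusted p of them. It encodes the heart and skeletal muscle isoform of subunit VIa, and its transcript is also known from plasmacytoid dendritic cells of the mouse. It read 5.43 and 5.94 on the KO arrays, against 6.79 and 7.69 on the WT arrays, so that both KO mice were below both WT mice, and it was detected on all 4 arrays. The Cox6a2 probe was dim, with signals before normalization of 126 and 148 in KO, against 193 and 279.5 in WT. The difference was -1.55 ± 0.35, or 0.341 times the WT level, with an adjusted p of 0.771. Its size depended on the background correction, and without that step the difference was -0.81. It ran between -2.00 and -0.81 over the alternatives, except the strict detection filter, which it did not pass, and its smallest adjusted p among them was 0.146, without WT1. The widely made isoform of the same subunit, Cox6a1, read 11.78 and 11.58 in KO, against 11.99 and 11.57 in WT (-0.10 ± 0.20).

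Most muscle markers were at background, and 5 of 7 (Ckm, Acta1, Myh4, Mb and Tcap) were detected on no array. The summed level of the 7 was 182 and 191 on the KO arrays, against 172 and 189 on the WT arrays. The other muscle isoforms of complex IV were at or near background: Cox8b was detected on no array, and Cox7a1 read 5.01 and 4.63 in KO, against 5.17 and 5.03 in WT, detected on 1 KO array and both WT arrays. For plasmacytoid dendritic cells a list of 11 genes was written after these values were seen, of which 10 were on the array and Ccr9 was detected on none. Its surface lectin Siglech has 3 probes, and 1 was detected on no array. The dimmer of the detected probes read 6.39 and 7.38 in KO, against 7.67 and 8.04 in WT (-0.97 ± 0.36), in the same order of arrays as Cox6a2. The brighter one read 7.93 and 9.27 in KO, against 8.84 and 9.55 in WT (-0.60 ± 0.50) with overlapping groups. This order is not particular to Siglech: the B cell marker Fcer2a had it too, at 9.90 and 10.57 in KO, against 10.59 and 11.04 in WT on its brightest probe. The 9 tested genes of the list had a median difference of -0.0035, with 5 lower and 4 higher in KO. Its summed level was 8304 and 10296 in KO, against 9190.1 and 12294 in WT, in the same order of arrays as the B cell sum. Ly6d and Tcf4, the brightest genes of the list, made most of this sum on each array. The part of plasmacytoid dendritic cells in the Cox6a2 values was not tested.

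**Figure D4:**
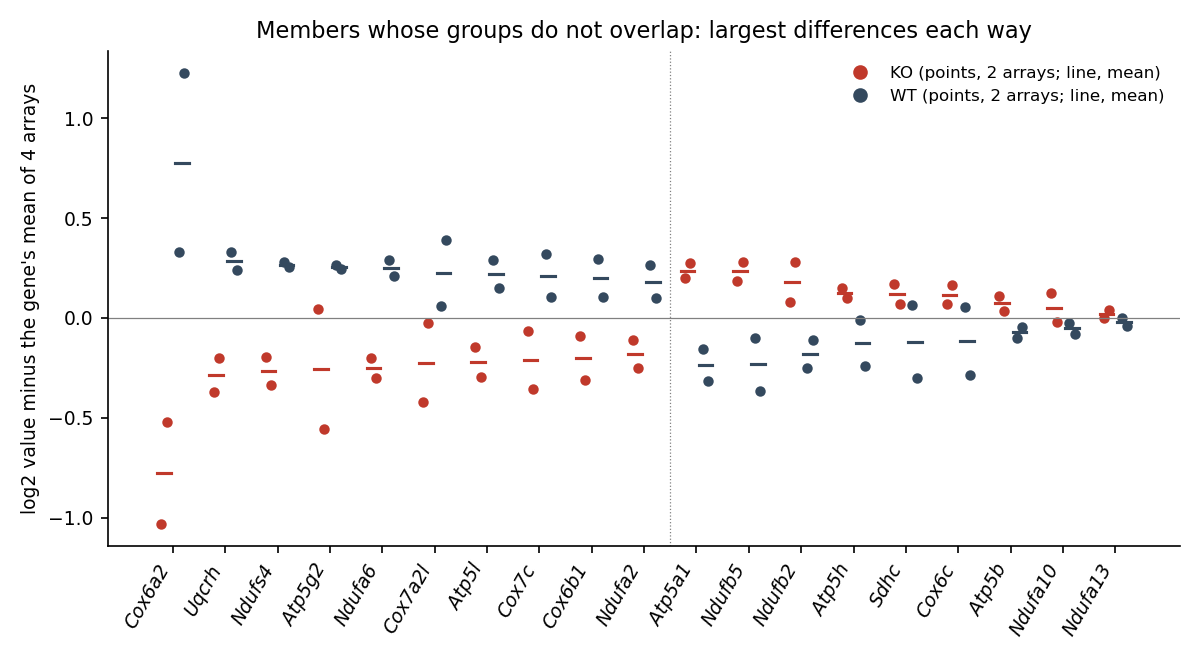
Log2 value minus the gene's mean over the 4 arrays (vertical axis) for the members with the 10 largest lower differences (left of the dotted line) and for the 9 higher ones, among genes whose KO values (red, left in each pair) lie on one side of both WT values (dark blue-grey). Points are arrays and short lines are group means (n = 2 per group). Cox6a2 spans far more than any other gene, and the 3 rightmost genes differ by 0.15 or less.

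The other complex IV genes named by isoform or size had smaller differences. Cox6b1, a subunit on the outer face of the inner membrane, read 11.52 and 11.30 in KO, against 11.90 and 11.71 in WT (-0.40 ± 0.16), and its second probe gave -0.34 ± 0.17, also with both KO values lower. Cox7c read 11.19 and 10.90 in KO, against 11.57 and 11.36 in WT (-0.42 ± 0.18, adjusted p = 0.771 as for Cox6b1). Cox6c was the 1 gene of the complex that was higher in both KO mice, at 9.65 and 9.74, against 9.63 and 9.29 in WT (0.23 ± 0.18, adjusted p = 0.807). Cox4i1, the isoform of most tissues, was -0.09 ± 0.14, Cox8a -0.04 ± 0.14 and Ndufa4, named as a complex I gene but known as a subunit of complex IV, -0.21 ± 0.17. The isoform induced by low oxygen, Cox4i2, was detected on no array, as were Cox7b, Cox7b2 and Cox8c. Cox6b2, the testis isoform, read 6.16 and 5.14 in KO, against 6.49 and 4.999 in WT (-0.09 ± 0.58), so replicate 1 was above replicate 2 in both groups. Cox7a2 read 5.39 and 5.28 in KO, against 5.38 and 5.01 in WT (0.14 ± 0.18).

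The ATP synthase had 14 tested of 16 genes, with a median difference of -0.13 (-0.06 when a gene's probes were averaged or no filter was set), 9 genes lower and 5 higher. Groups were apart in 4 lower genes (28.6%, beside 17.6% of all tested genes) and in 3 higher genes (21.4%, beside 20.6%). The median was -0.01 without WT1 and 0.05 without KO2. The genes were also split by role after the values were seen. The 4 tested subunits of the F1 part, which holds the catalytic sites, had a median of 0.10 with 1 lower. The 10 of the membrane part and peripheral stalk had -0.25 with 8 lower. All 10 read higher on replicate 1 than on replicate 2 in both groups. The median of their values minus each gene's 4-array mean was 0.02 on KO1, -0.21 on KO2, 0.24 on WT1 and -0.08 on WT2. This split thus also rested on WT1 and KO2. In the F1 part these medians were 0.14, -0.04, -0.05 and -0.05. The F1 subunit Atp5a1 (alpha) read 6.63 and 6.70 on the KO arrays, against 6.27 and 6.11 on the WT arrays (0.47 ± 0.15, adjusted p = 0.771). Its difference ran between 0.24, without background correction, and 0.55 over the alternatives. The Atp5a1 probe was dim, with signals before normalization of 183 and 194 in KO, against 160 and 149 in WT. Atp5b (beta), which forms the catalytic sites with it, read 14.07 and 14.00 in KO, against 13.87 and 13.92 in WT (0.15 ± 0.14), but turned to -0.11 under median scaling. The other tested F1 subunits, Atp5c1 and Atp5d, were at -0.03 ± 0.15 and 0.06 ± 0.16.

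In the membrane part, 3 genes encode the same c subunit of the ring, and their differences ran from -0.51 to 0.13. Atp5g2 read 9.44 and 8.84 in KO, against 9.66 and 9.64 in WT (-0.51 ± 0.23, adjusted p = 0.771), with the low value of KO2 making most of the difference. Atp5g1 read 11.05 and 10.46 in KO, against 11.23 and 10.76 in WT (-0.24 ± 0.27), and Atp5g3 13.49 and 13.33 in KO, against 13.41 and 13.14 in WT (0.13 ± 0.17, and -0.07 under median scaling). Atp5l, subunit g, which helps the enzyme to form dimers, read 10.25 and 10.10 in KO, against 10.69 and 10.54 in WT (-0.44 ± 0.15, adjusted p = 0.771), and its difference ran between -0.52 and -0.37 over the alternatives. Atp5h, subunit d of the peripheral stalk, was the 1 gene of this group with both KO values higher, at 10.48 and 10.43 in KO, against 10.32 and 10.09 in WT (0.25 ± 0.15, adjusted p = 0.771). Atp5j, coupling factor F6 of the stalk, gave -0.16 ± 0.17 on its brighter probe and 0.23 ± 0.17 on a dimmer one.

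Cox7a2l, a factor that joins complexes III and IV into supercomplexes, read 10.68 and 11.08 on the KO arrays, against 11.16 and 11.49 on the WT arrays (-0.45 ± 0.21, adjusted p = 0.771). Unlike most of the genes above, it was higher in replicate 2 than in replicate 1 of both groups, as the summed B cell markers were. The 7 assembly factors among the genes, which help to build complexes I and III and are not part of them, ran from -0.16 to 0.15. None of the 7 had groups apart, beside 17.6% lower and 20.6% higher of all tested genes. Of the 75 tested genes, 4 lie on chromosome 6 with Snd1. Ndufa5 was lower in both KO mice (-0.36 ± 0.18), and Ndufa4 (-0.21) and Ndufa9 (-0.17) had lower KO means with overlapping groups. Ndufb2 was higher (0.36 ± 0.16), but it was dim and was detected on only 1 WT array.

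Of the genes that work with these complexes, none passed the adjusted test in either direction. The 13 tested genes of coenzyme Q synthesis and electron carriers had a median difference of 0.0085, the 25 other assembly factors 0.04, the 13 TCA cycle and pyruvate dehydrogenase genes -0.06 and the 14 regulators of mitochondrial genes 0.05. The KO mean was lower in 6 of the 13 coenzyme Q and carrier genes, 9 of the 25 assembly factors, 9 of the 13 TCA cycle genes (69.2%, close to the 68.0% of the respiratory genes) and 5 of the 14 regulators. Both KO values lay below both WT values in 4 of the 13 TCA cycle genes (30.8%, beside 17.6% of all tested genes). They lay above them in 1 (7.69%, beside 20.6%). The coenzyme Q and carrier genes went the other way, with 1 of 13 below (7.69%) and 4 above (30.8%). So did the other assembly factors, with 2 of 25 below (8%) and 8 above (32%). Of the 14 regulators, 0 lay below and 2 above (14.3%). Coa3, an assembly factor of complex IV, read 10.26 and 10.21 in KO, against 10.73 and 10.52 in WT (-0.39 ± 0.15), and Gabpa, the DNA-binding subunit of GABP, 6.10 and 6.11 in KO, against 5.49 and 5.90 in WT (0.41 ± 0.19, adjusted p = 0.771 each). Both were picked for having the largest difference of their lists. Nrf1 differed by 0.03 ± 0.15, Tfam by 0.02 ± 0.14 and Ppargc1b by -0.06 ± 0.23. The ATP synthase inhibitor Atpif1 read 12.85 and 12.70 in KO, against 13.11 and 12.12 in WT (0.15 ± 0.34), highest on WT1 and lowest on WT2, as the erythroid markers were.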

How the data were processed

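Spleen RNA of 2 KO and 2 WT mice, called biological duplicates in the methods, was hybridised to 1 bead array per mouse, and groups and replicate numbers came from the sample titles. The signal table was deposited by the authors as linear intensity values from Illumina GenomeStudio, without background subtraction or normalization. Its detection columns were deposited as a fraction that is high for bright probes (rank correlation with signal 0.975 to 0.991), so they were read as 1 minus the detection p. The authors also deposited a value table, whose scale the sources do not state. Its log2 values are, as deposited, the quantile-normalized signals without background correction or centring, for every probe but 1 of 25697, with a median of 6.82 in each column. Median signals were 112 to 114, and 12396 to 12908 probes were detected per array.

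Signals were background-corrected with normexp (offset 16, negative controls inferred from detection p), quantile normalized and log2-transformed with limma 3.58.1 in R 4.3.3. Tests used lmFit and eBayes with 5.04 total degrees of freedom. Each gene was represented by its tested probe of highest mean, and 1719 probes had no symbol. Symbols came from the platform annotation and a RefSeq table of GRCm38.p6, since the files name no build. The named genes were those past the threshold, the 10 largest differences each way with groups apart (9 qualified as higher), the smallest p of each complex, isoforms, the Sdh genes and genes with discordant probes. The fit was tested on simulated data with differences larger than any of these genes had. That test does not show how well differences of the sizes given here are found. Alternatives changed the background correction, scaling, filter, probe summary, prior, weights, replicate block or the arrays used. No source used here names the slide or scan of an array, and no batch was tested. The genes, lists and this rule were chosen with earlier results of these data known.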

Additional observations from a re-analysis of the deposited data

How the results depend on the processing

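No alternative called any of the genes, and the smallest adjusted p among them was 0.146 for Cox6a2 without WT1. The median difference of all the genes stayed below 0 in each alternative, at -0.08 without background correction and in the authors' value table, -0.12 under median scaling and -0.19 to -0.02 when 1 array was left out. Leaving out 1 array moved the median of complex I between -0.20 and -0.06, of complex II between -0.023 (without WT2) and 0.20, of complex III between -0.23 and -0.02, of complex IV between -0.30 (without WT2) and 0.0007 (without KO2), and of the ATP synthase between -0.26 (without WT2) and 0.054 (without KO2). When no filter was set, the medians of complex IV and the ATP synthase were -0.02 and -0.06, and with the mean of all probes the ATP synthase was also at -0.06. Complex II was at 0.03 without background correction or in the value table. With fewer arrays the lone array of a group is assumed to vary like those of the other. Of the 19 genes named for their size or p, 18 kept their direction in each alternative that measured them, and Atp5b turned to -0.11 under median scaling. Cox6a2 and Ndufb2 had no value under a detection p of 0.01 on all arrays. Using the replicate number as a block called 0 genes, with a smallest adjusted p of 0.379, and left every median as it was. Same-numbered arrays deviated together with r = 0.19 over 12493 probes, a value that does not show which mice were littermates. At an unadjusted p under 0.05, 5 probes of these genes were lower in KO, against 12 without background correction or in the value table, 14 when no filter was set, 9 with offset 50, with the trend and robust prior or in the unmoderated test, 8 with the block, 3 without KO1 or WT1 and 2 without KO2. Over the whole array, the 2 called probes became 0 to 14, the most without WT1. The tested probes of Ndufb2, Cox6b2, Cox7a1 and Cox7a2 were not above background on 1 array each, which limits what their differences show.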
